A study of Mus musculus with 9 samples.

Results

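The 9 genes described here are subunits of NF-kappaB and its inhibitors and regulators: Nfkb1, Nfkb2, Rela, Relb, Nfkbia, Nfkbie, Nfkbiz, Bcl3 and Tnfaip3. They were taken by name, and all 9 are among the 9277 genes of the deposited table. RNA was sequenced from lung endothelial cells of mice with cleavage-resistant Tie1 (Tie1-CR, 5 libraries) and of mice with wild-type Tie1 (Tie1-WT, 4 libraries). Tie1 is an endothelial receptor of the Tie family, and in Tie1-CR mice it resists the proteolytic cleavage that inflammatory insults bring about. All 9 library names carry PBS. The sources used here do not give how the allele was made, whether mice were homozygous, their age or sex, how cells were isolated, or whether each library came from a separate mouse. P-values therefore measure the spread between these samples, which may be technical.

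NF-kappaB is a family of dimeric transcription factors that resting cells hold in the cytoplasm by binding to IkappaB proteins. Cytokine and pathogen receptors activate a kinase complex that marks IkappaB for destruction, and the freed dimers enter the nucleus. In endothelium the pathway is known for switching on adhesion molecules, chemokines and its own inhibitors. Nuclear IkappaB relatives such as the products of Nfkbiz and Bcl3 instead sit with the dimers on chromatin and change which targets are transcribed.

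Tie1 itself was read at 2329 to 2679 CPM in Tie1-CR libraries, against 2079 to 2171 CPM in Tie1-WT libraries (limma adjusted p = 0.107). CPM is a gene's reads scaled to the total reads counted in its library. A change that blocks cleavage of the protein need not alter transcript level, so this value does not check the genotype labels. The 10 endothelial markers summed to 17587 to 18146 CPM in Tie1-CR libraries, against 16132 to 17829 CPM in Tie1-WT libraries. Of 18 leukocyte markers only Cd68 and Lyz2 are in the table, with sums of 60.2 to 118 CPM in Tie1-CR libraries and 30.6 to 76.9 CPM in Tie1-WT libraries. Sums of 4 of 7 airway markers did not overlap, at 48.0 to 81.4 CPM in Tie1-CR libraries against 12.5 to 38.2 CPM in Tie1-WT libraries. Markers of type 2 pneumocytes (7 of 9 measured) summed to 446 to 799 CPM in Tie1-CR libraries and 288 to 636 CPM in Tie1-WT libraries, and those of type 1 pneumocytes (6 of 8) to 1932 to 2369 CPM in Tie1-CR libraries and 1833 to 2557 CPM in Tie1-WT libraries. Sums for fibroblasts (5 of 9), mural cells (3 of 10) and platelets (3 of 5) overlapped between genotypes, and no marker of mesothelium or erythroid cells was measured. Against the direction of the leukocyte sums, Cd68 was lower in Tie1-CR (-0.90 log2, limma adjusted p = 0.0064). Of the other markers Erg of endothelium was lower in Tie1-CR (-0.41 log2, limma adjusted p = 0.0052), and Sftpd of type 2 pneumocytes and Cyp2f2 and Cbr2 of airway cells were higher, by 1.14, 1.14 and 1.31 log2 (limma adjusted p from 0.0232 to 0.0440). The part of these cells in the results was not tested. In bulk RNA, fewer cells of a type and less RNA per cell cannot be told apart.

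Nfkbiz (chr16:55811375-55838899, minus strand, GRCm38), which encodes the nuclear regulator IkappaB-zeta, fell in Tie1-CR cells, and it was the only gene of the 9 to pass the test. It was read at 38.4, 50.5, 41.8, 41.7 and 54.1 CPM in the 5 Tie1-CR libraries, against 139, 168, 123 and 96.5 CPM in the 4 Tie1-WT libraries. The groups did not overlap, and the highest Tie1-CR library lay well below the lowest Tie1-WT library. The means were 45.3 ± 6.63 CPM in Tie1-CR (SD, n = 5) and 132 ± 30.0 CPM in Tie1-WT (SD, n = 4). On log2(CPM + 1) the difference was -1.50 with a standard error of 0.15 and a 95% interval of -1.82 to -1.18, a 2.83-fold lower level (limma adjusted p = 0.000913). Of all 9277 genes it ranked 4 by size of the difference. The library with fewest Nfkbiz reads held 1851 of them, a counting error of 2.32%, against an SD between libraries of 14.6% in Tie1-CR and 22.8% in Tie1-WT. Leaving out any library gave -1.64 to -1.38 log2, and Nfkbiz passed each time. Over all genes, 4.05% passed the threshold of an adjusted p of 0.05, 2.77% lower and 1.28% higher in Tie1-CR. The split of 119 higher and 257 lower was 182 and 194 with TMM scaling. Without each library in turn 6 to 110 genes were higher and 54 to 245 lower, with both lowest without Tie1-WT replicate 1. Groups did not overlap for 10.5% of genes (6.74% with Tie1-CR lower), and among the 9 only Nfkbiz had groups that did not overlap.

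**Figure D1:**
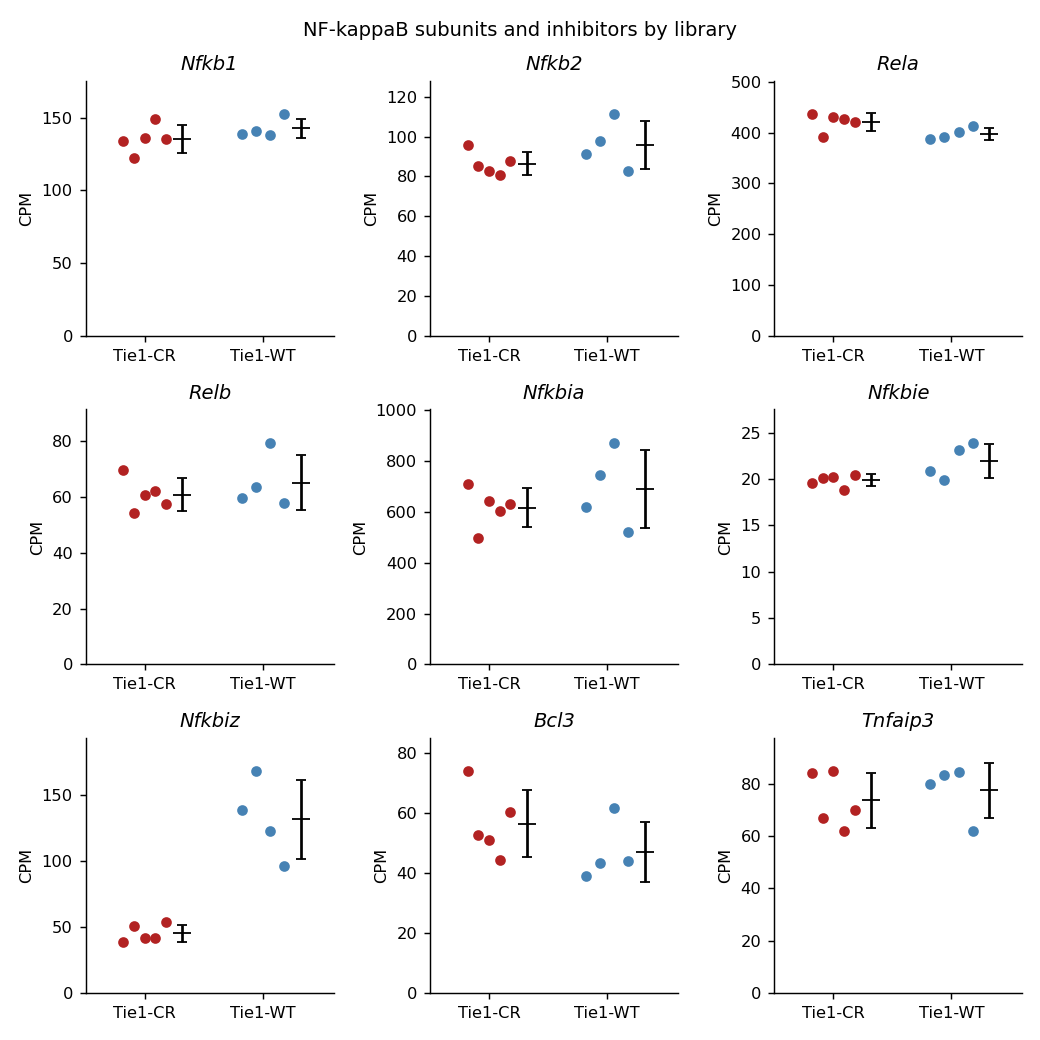
CPM of each of the 9 genes in every library, with Tie1-CR (5 libraries, red) left of Tie1-WT (4 libraries, blue). The bar beside each group is the mean ± SD. Nfkbiz lies between 38.4 and 54.1 CPM in Tie1-CR and between 96.5 and 168 CPM in Tie1-WT, and the groups of every other gene overlap.

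The DNA-binding subunits did not pass the test. Rela (chr19:5637483-5648130, plus strand), which encodes the activating subunit p65, had 436, 392, 431, 427 and 421 CPM in Tie1-CR libraries, against 388, 391, 400.2 and 414 CPM in Tie1-WT libraries. Its groups overlapped, and 4 of the 5 Tie1-CR libraries lay above every Tie1-WT library. The difference was 0.08 log2 (95% interval -0.02 to 0.19, limma adjusted p = 0.339). Nfkb1 (chr3:135584655-135691547, minus strand) encodes the p105 precursor of p50, the usual partner of p65. It was read at 134, 122, 136, 149 and 136 CPM in Tie1-CR libraries, against 139, 141, 138 and 152 CPM in Tie1-WT libraries, a difference of -0.08 log2 (95% interval -0.21 to 0.05, limma adjusted p = 0.450). The groups overlapped, with 1 Tie1-CR library, replicate 4, among the Tie1-WT values.

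Nfkb2 and Relb form the dimer of the non-canonical pathway, and neither passed the test. Nfkb2 (chr19:46304320-46312385, plus strand), the gene of the p100 precursor of p52, had 96.0, 85.3, 82.8, 80.6 and 87.5 CPM in Tie1-CR libraries, against 91.2, 97.9, 111 and 82.6 CPM in Tie1-WT libraries. Its difference was -0.14 log2 (95% interval -0.32 to 0.04, limma adjusted p = 0.330). Relb (chr7:19606217-19629438, minus strand) had 69.7, 54.1, 60.5, 62.2 and 57.4 CPM in Tie1-CR libraries, against 59.5, 63.5, 79.3 and 57.7 CPM in Tie1-WT libraries. Both genes were at their highest of the Tie1-WT libraries in replicate 3, and for both the groups overlapped. Relb differed by -0.09 log2 (95% interval -0.30 to 0.12, limma adjusted p = 0.615), and without Tie1-WT replicate 3 by 0.0095 log2, with the opposite sign. Exons of Nfkb2 share 531 bases with AC114539.1 and 299 bases with Psd, both on the other strand, and strand was not kept, so shared reads cannot be told apart. Psd, which encodes an exchange factor for the small GTPase Arf6, was at 8.28 ± 1.05 CPM in Tie1-CR (SD, n = 5) and 12.7 ± 2.14 CPM in Tie1-WT (SD, n = 4).

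The cytoplasmic inhibitors did not pass the test either. Nfkbia (chr12:55489410-55492647, minus strand) encodes IkappaB-alpha, the inhibitor that NF-kappaB induces to end its own activity. It was read at 710.4, 495, 644, 603 and 630.4 CPM in Tie1-CR libraries, against 620.2, 745, 871 and 519 CPM in Tie1-WT libraries. The groups overlapped, and every Tie1-CR library except replicate 2 lay between the lowest and the highest Tie1-WT library. The difference was -0.14 log2 (95% interval -0.45 to 0.17, limma adjusted p = 0.580). Nfkbie (chr17:45555703-45563169, plus strand), the gene of IkappaB-epsilon, had 19.6, 20.2, 20.2, 18.8 and 20.5 CPM in Tie1-CR libraries, against 20.9, 19.9, 23.1 and 23.9 CPM in Tie1-WT libraries. Tie1-WT replicate 2 lay among the Tie1-CR libraries and the other 3 above them all. The difference was -0.14 log2 (95% interval -0.28 to 0.0050), and it did not pass (limma adjusted p = 0.240).

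Bcl3 (chr7:19808462-19822770, minus strand), a nuclear relative of IkappaB that binds p50 and p52 homodimers, had the largest positive difference of the 9 genes. It was read at 73.8, 52.7, 51.0, 44.2 and 60.2 CPM in Tie1-CR libraries, against 38.8, 43.4, 61.5 and 44.0 CPM in Tie1-WT libraries. Tie1-WT replicate 3 lay above 4 of the 5 Tie1-CR libraries, so the groups overlapped. The difference was 0.26 log2 (95% interval -0.07 to 0.59, limma adjusted p = 0.332). Exons of Bcl3 share 161 bases with the antisense gene Gm16175, whose reads cannot be told apart from its own. Tnfaip3 (chr10:19000910-19015657, minus strand) encodes A20, a ubiquitin-editing enzyme that ends signalling from receptors to the kinase complex. It was read at 84.3, 67.0, 84.8, 62.0 and 70.2 CPM in Tie1-CR libraries, against 79.8, 83.6, 84.6 and 62.0 CPM in Tie1-WT libraries. The groups overlapped, and the difference was -0.07 log2 (95% interval -0.32 to 0.17, limma adjusted p = 0.739).

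Of the 9 differences, 7 were negative and 2, those of Rela and Bcl3, positive, while 58.5% of all genes were below 0. The median over all genes was -0.03 log2. The intervals of the 8 genes that did not pass reach at most -0.45 log2 on the low side and 0.59 log2 on the high side.

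**Figure D2:**
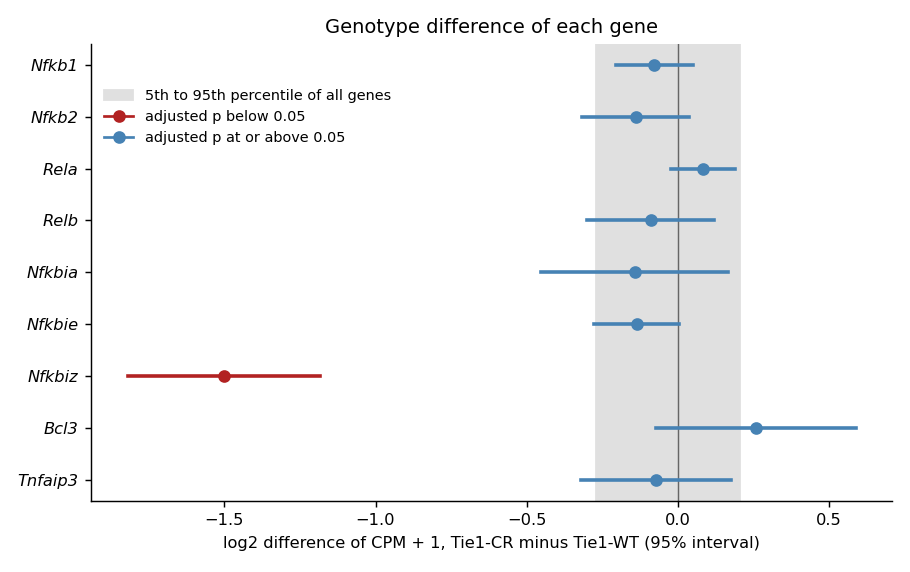
Difference of log2(CPM + 1), Tie1-CR minus Tie1-WT, of each of the 9 genes, with its 95% interval from limma (5 Tie1-CR and 4 Tie1-WT libraries). The grey band runs from the 5th to the 95th percentile of all 9277 genes, -0.27 to 0.21. Nfkbiz, at -1.50, is the only gene whose whole interval lies outside the band. The estimate of Bcl3, at 0.26, also lies above the band, though its interval reaches into it.

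Nfkbiz was also set against each of the other 8 genes within each library, a comparison added after the data were seen. Nfkbiz reads came to between 5.40% and 10.2% of Nfkbia reads in Tie1-CR libraries, against 14.1% to 22.6% in Tie1-WT libraries. Against Bcl3, the other nuclear IkappaB relative, the share was 52.0% to 95.8% in Tie1-CR libraries and 200.1% to 388% in Tie1-WT libraries. Nfkbiz reads were thus fewer than Bcl3 reads in all 5 Tie1-CR libraries and more in all 4 Tie1-WT libraries. Across the 8 pairs the log2 ratio differed by -1.76 (Bcl3) to -1.36 (Nfkbia), and in none did the groups overlap. The 8 ratios share the Nfkbiz values and restate its fall, so they are given as a description with no test. These ratios are of reads, not of molecules, since transcripts differ in length.

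Levels can be compared between genes only per length, here as CPM per kilobase of merged GENCODE exons. On that scale Nfkbia was highest in both genotypes, at 391 ± 49.7 in Tie1-CR (SD, n = 5) and 437 ± 96.7 in Tie1-WT (SD, n = 4). Rela came next, at 155 ± 6.45 in Tie1-CR and 147 ± 4.28 in Tie1-WT. Both stood apart from the other 7 genes, of which Nfkb1 was the highest, at 32.8 ± 2.27 in Tie1-CR and 34.6 ± 1.58 in Tie1-WT. In Tie1-CR cells the order then ran Nfkb1, Bcl3, Relb, Nfkb2, Tnfaip3, Nfkbiz and Nfkbie. Libraries of Nfkb1, Bcl3 and Relb overlapped there, and from Relb on no gene's libraries overlapped those of the next. Nfkbiz stood in place 8 there, with libraries from 9.28 to 13.1, below Tnfaip3 at 13.5 to 18.5 and above Nfkbie at 7.73 to 8.40. In Tie1-WT cells Nfkbiz stood in place 4, with libraries from 23.3 to 40.7. There its libraries overlapped those of Nfkb1 (33.6 to 36.9), Relb (26.1 to 35.9), Bcl3 (21.0 to 33.3) and Nfkb2 (19.6 to 26.3), so its place among these 4 does not stand out from their spread. The order of the 7 lower genes depends on the exon lengths used. With those of all annotated transcripts Nfkb1 was at 11.2 in Tie1-CR and 11.8 in Tie1-WT, in place 6 in Tie1-CR and place 7 in Tie1-WT. Nfkbiz then stood in place 8 in Tie1-CR and place 3 in Tie1-WT.

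Within a genotype the 9 genes varied by different amounts, and several but not all were highest or lowest in the same libraries. For Rela the SD was 4.16% of the mean in Tie1-CR and 2.92% in Tie1-WT. For Nfkbia the SD was 12.7% in Tie1-CR and 22.1% in Tie1-WT, and for Bcl3 it was 20.0% in Tie1-CR and 21.3% in Tie1-WT. Tie1-CR replicate 1 was the highest of its genotype for 5 genes, Nfkb2, Rela, Relb, Nfkbia and Bcl3, and the lowest for Nfkbiz. Tie1-WT replicate 3 was the highest of its genotype for 5 genes, Nfkb2, Relb, Nfkbia, Bcl3 and Tnfaip3, while Nfkbiz there lay 0.07 log2 below its genotype mean. Tie1-WT replicate 4 was the lowest for Nfkb2, Relb, Nfkbia, Tnfaip3 and also Nfkbiz. Nfkbiz was highest of its genotype in Tie1-CR replicate 5 and Tie1-WT replicate 2, libraries in which Nfkbia lay 0.04 and 0.14 log2 above its genotype mean.

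**Figure D3:**
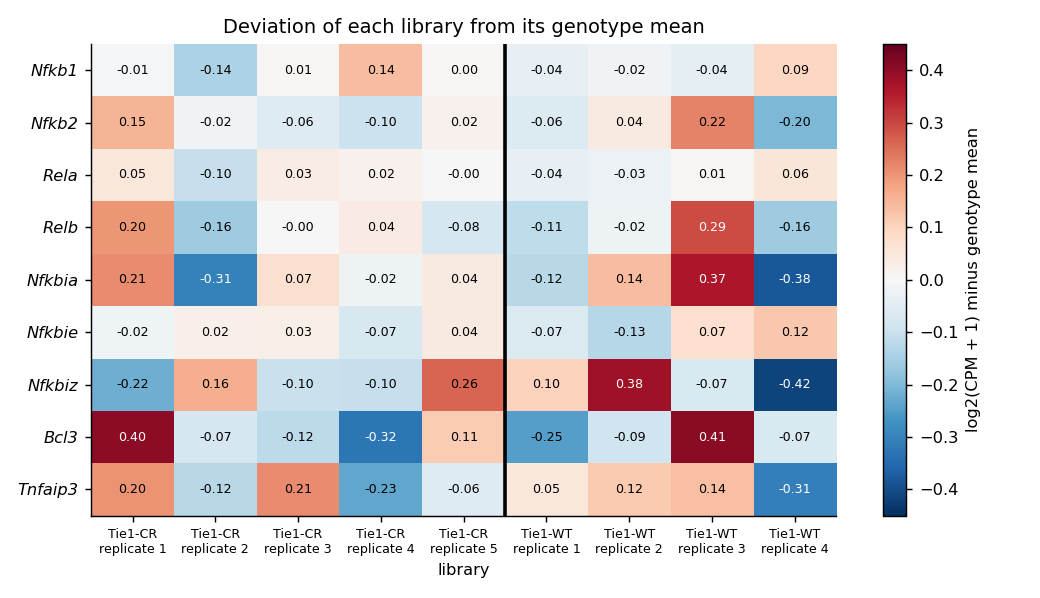
Deviation of each library's log2(CPM + 1) from the mean of its own genotype, for the 9 genes (rows) in the 5 Tie1-CR libraries (left of the line) and the 4 Tie1-WT libraries (right). Nfkbia deviates by 0.37 in Tie1-WT replicate 3 and by -0.38 in replicate 4, and Nfkbiz by 0.38 in Tie1-WT replicate 2 and by -0.42 in replicate 4.

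Sites for NF-kappaB near the starts of these genes are shown because several of them are known targets of the factor they regulate. The 250 bases before each RefSeq start (GRCm38.p6) were searched on both strands for the 10-base NF-kappaB consensus motif. The RefSeq table held windows for 6 of the 9 genes, and Nfkbiz, Nfkb1 and Relb are not among them. At least 1 window of Nfkbia, Nfkbie, Nfkb2 and Tnfaip3 held a match, and those of Rela and Bcl3 held none. Of all 32851 windows 3.90% held a match, and of 7159 table genes 5.53%. The lines give 1 match for each gene with the match in capitals, on the strand of the gene: Nfkbia at chr12:55492657-55492686 (minus strand), Nfkbie at chr17:45555584-45555613 (plus), Nfkb2 at chr19:46304689-46304717 (plus, overlapping matches) and Tnfaip3 at chr10:19015516-19015545 (minus).
Nfkbia: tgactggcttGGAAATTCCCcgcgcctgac
Nfkbie: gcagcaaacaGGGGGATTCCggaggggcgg
Nfkb2: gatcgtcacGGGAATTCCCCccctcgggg
Tnfaip3: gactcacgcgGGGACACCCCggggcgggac
The Nfkb2 and Tnfaip3 stretches lie before a RefSeq start but inside the GENCODE spans of these genes given above. Both genes held further matches that are not shown. A match is a description of letters and not a measured binding site. None of the 6 genes searched passed the test between genotypes, and Nfkbiz, which did, was not searched. Matches therefore cannot be set against the differences here.

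By the root mean square distance of log2(CPM + 1), each gene centred on its mean over the 9 libraries, the genes nearest to Nfkbiz were not members of the family. They were Egr1 at 0.13, Dusp5 at 0.13, Fosb at 0.16, Egr3 at 0.17 and Egr2 at 0.22, against a median of 0.78 over all genes. Egr1, Egr2 and Egr3 are zinc finger transcription factors of the early response to growth factors, Fosb is a subunit of AP-1, and Dusp5 is a phosphatase of ERK. Egr1 was read at 709 to 934 CPM in Tie1-CR libraries, against 1688 to 2583 CPM in Tie1-WT libraries. Its difference was -1.42 log2 (limma adjusted p = 0.000657), and those of the other 4 ran from -1.60 for Egr2 to -1.35 for Egr3. The measure includes the difference between genotypes, so genes with a fall of like size come out near. Of the other members, Nfkb2 was nearest at 0.72, in place 1363 of 9276, and Bcl3 was farthest at 0.95, in place 9082.

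**Figure D4:**
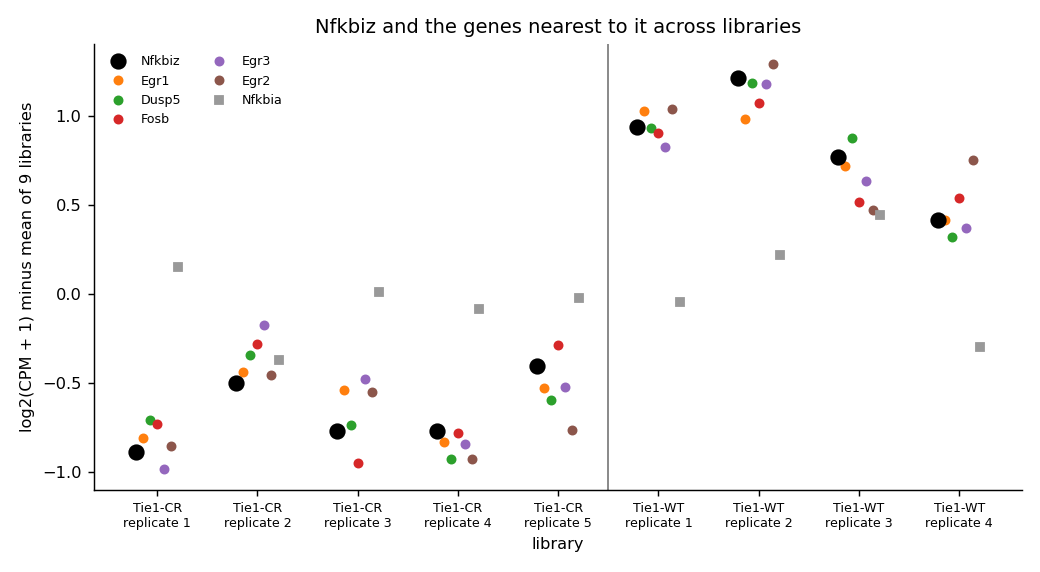
log2(CPM + 1) minus the mean of the 9 libraries for Nfkbiz (black), its 5 nearest genes and Nfkbia (grey squares), with the 5 Tie1-CR libraries left of the line and the 4 Tie1-WT libraries right of it. Nfkbiz and its 5 nearest genes are all below 0 in Tie1-CR and above 0 in Tie1-WT, while Nfkbia lies on both sides of 0 in each genotype. At their Tie1-CR levels Dusp5, Egr2 and Egr3 could be measured only as lower in Tie1-CR.

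Upstream of NF-kappaB, 12 of 24 listed receptors are in the table and none passed, with 4 (33.3%) at an unadjusted p under 0.05, against 22.3% of all genes, and a median of -0.03 log2. The receptors with the highest means were Tnfrsf1a, the main receptor for TNF, and Ltbr, the lymphotoxin beta receptor that feeds the non-canonical pathway. Tnfrsf1a was at 416 ± 13.1 CPM in Tie1-CR and 384 ± 10.6 CPM in Tie1-WT (SD, n = 5 and 4, limma adjusted p = 0.167). Ltbr was at 195 ± 12.6 CPM in Tie1-CR and 171 ± 6.68 CPM in Tie1-WT (SD, n = 5 and 4, limma adjusted p = 0.0784), and it passed with TMM scaling (limma adjusted p = 0.0497). Of 39 listed adaptors and kinases 37 were measured and none passed, with 10 (27.0%) at an unadjusted p under 0.05, near the share of all genes, and a median of -0.04 log2. Those with the highest means were Card10, a scaffold of the kinase complex downstream of G protein-coupled receptors, and Map3k3, a kinase of the MAP kinase cascades. Card10 differed by 0.19 log2 (limma adjusted p = 0.0719) and Map3k3 by -0.02 log2 (limma adjusted p = 0.829).

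Among 27 measured of 31 other subunits and regulators, 2 passed (7.41%), both lower in Tie1-CR, against 2.77% of all genes lower. At an unadjusted p under 0.05 were 11 (40.7%), against 22.3% of all genes, and the median was -0.09 log2. Nfkbid encodes IkappaBNS, a nuclear IkappaB relative like the products of Nfkbiz and Bcl3. It was read at 8.31, 10.4, 10.6, 11.1 and 10.4 CPM in Tie1-CR libraries, against 18.5, 18.2, 18.8 and 14.2 CPM in Tie1-WT libraries. The groups did not overlap, with Tie1-WT replicate 4 the closest to the Tie1-CR values. Nfkbid fell by 0.72 on the log2 scale (SE 0.10, limma adjusted p = 0.00524), a 1.65-fold lower level. Cyld, a deubiquitinase that restrains the pathway, was at 34.3 ± 2.50 CPM in Tie1-CR and 41.0 ± 1.02 CPM in Tie1-WT (SD, n = 5 and 4, limma adjusted p = 0.0372), a fall of 0.25 log2. Without each library in turn Cyld kept its call only without Tie1-CR replicate 2 or 3, and elsewhere its limma adjusted p ran from 0.0522 to 0.115. Rel, the c-Rel subunit, was named after its value was seen and did not pass, at 30.2 ± 3.68 CPM in Tie1-CR and 40.3 ± 5.79 CPM in Tie1-WT (SD, n = 5 and 4, limma adjusted p = 0.0559).

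Short stretches of the 3′ untranslated regions of Nfkbiz and Nfkbid are shown because in mouse T cells both transcripts are known to be degraded through short stem-loops there, bound by Roquin proteins (Rc3h1, Rc3h2) and Regnase-1 (Zc3h12a). The 3′ untranslated region of the longest GENCODE M21 coding transcript of each gene (GRCm38) was searched on the sense strand for TTCNNNGAA. It occurs in 37.3% of 8876 table genes, and among the 9 in Nfkbiz and Nfkbia. The narrower TTCTNTGAA, chosen after the sites were seen, occurs in 8.68% of table genes and among the 9 only in Nfkbiz. Nfkbid holds 2 copies, and 0.721% of table genes hold 2 or more. Since the narrower form was chosen with these sites seen, its shares are a description of letters and not a test. A match here is not a measured binding site. The lines give, with the match in capitals, Nfkbiz at chr16:55812607-55812635 (minus strand), the first Nfkbid copy at chr7:30428395-30428423 (plus) and, for contrast, Nfkbia at chr12:55489701-55489729 (minus), which holds only the wider form.
Nfkbiz: tgtaagttgtTTCTATGAAacaaacccat
Nfkbid: tctaggtgatTTCTGTGAAatcgagccca
Nfkbia: atcactgaaaTTCAAAGAAaatgtctctt
Transcripts of the binding proteins did not pass the test, and all were named after their values were seen. The differences were -0.24 log2 for Zc3h12a (limma adjusted p = 0.0893), -0.15 for Rc3h1 (limma adjusted p = 0.168) and -0.12 for Rc3h2 (limma adjusted p = 0.182). Decay of transcripts was not measured, and its part in these results was not tested. The AU-rich heptamer TATTTAT occurs in 31.8% of table genes and among the 9 in Nfkbia and Tnfaip3, with 2 copies each, and not in the searched transcript of Nfkbiz.

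Of 56 listed NF-kappaB targets 29 are in the table, and 5 (17.2%) passed, all lower in Tie1-CR, against 2.77% of all genes lower. At an unadjusted p under 0.05 were 13 (44.8%), against 22.3% of all genes. The median was -0.19 log2, with 26 of the 29 (89.7%) below 0, against 58.5% of all genes. The classical targets Ccl2, Cxcl1, Il6 and Tnf are among the 56 but are not in the table, so they could not be assessed. Ptgs2, the inducible cyclooxygenase, was read at 12.6 to 21.3 CPM in Tie1-CR libraries, against 32.3 to 39.8 CPM in Tie1-WT libraries, a difference of -1.06 log2 (limma adjusted p = 0.00399). It and Nfkbid, which also counts as a target, passed whichever library was left out. With TMM scaling these were the 2 targets that passed. The other 3 lay close to the threshold, and without each library in turn Il1a and Cflar lost their call in 7 of 9 fits and Ier3 in 8 of 9. Il1a passed only without Tie1-CR replicate 1 or 2, Cflar without Tie1-CR replicate 5 or Tie1-WT replicate 4, and Ier3 without Tie1-CR replicate 1. Il1a, an interleukin-1 cytokine, was at 13.0 ± 2.40 CPM in Tie1-CR and 18.7 ± 1.78 CPM in Tie1-WT (SD, n = 5 and 4, limma adjusted p = 0.0476). Cflar, an inhibitor of caspase-8, was at 109 ± 12.9 CPM in Tie1-CR and 139 ± 9.90 CPM in Tie1-WT (SD, n = 5 and 4, limma adjusted p = 0.0414). Ier3, an early response regulator of survival, was at 343 ± 89.4 CPM in Tie1-CR and 509 ± 43.1 CPM in Tie1-WT (SD, n = 5 and 4, limma adjusted p = 0.0473), and its groups overlapped. Icam1 is an adhesion molecule often used as a readout of NF-kappaB in endothelium, and it was named after its value was seen. It was at 691 ± 45.4 CPM in Tie1-CR and 692 ± 45.6 CPM in Tie1-WT (SD, n = 5 and 4, limma adjusted p = 0.984). The adhesion molecules Selp, Vcam1 and Sele were also named after their values were seen, and none passed. The differences were -0.33 log2 for Selp (limma adjusted p = 0.201), -0.25 for Vcam1 (limma adjusted p = 0.331) and -0.19 for Sele (limma adjusted p = 0.610).

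The early response genes of the AP-1, Egr and related families, which share Ier3, Gadd45b and Myc with the target list, held the genes nearest to Nfkbiz. Of 32 listed 29 were measured and 15 (51.7%) passed, all lower in Tie1-CR, against 2.77% of all genes lower. The median was -0.68 log2, with 28 of the 29 (96.6%) below 0, against 58.5% of all genes. The 15 were Fos, Fosb, Junb, Egr1, Egr2, Egr3, Atf3, Ier2, Ier3, Nr4a2, Dusp5, Btg2, Zfp36, Socs3 and Socs1. Of these, Dusp5, Egr2 and Egr3 reached the minimum level for entry to the table only in Tie1-WT libraries. At their Tie1-CR levels they could be measured here only as lower in Tie1-CR, so their direction is not free of that limit. Without each library in turn between 10 and 17 of the 29 early response genes passed. Of the 15, Ier3 lost its call in 8 of these 9 fits, Nr4a2 in 6, Socs3 in 4, Ier2 in 2 and Btg2 in 1. Nr4a2 also lost its call with quantile normalization (limma adjusted p = 0.0609). The fall of Nfkbiz, at -1.50 log2, lay within the range of the 15. The 15 are genes that passed and the other 8 members are genes that did not. A contrast of sizes between them is largely set by the threshold, so none is drawn.

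**Figure D5:**
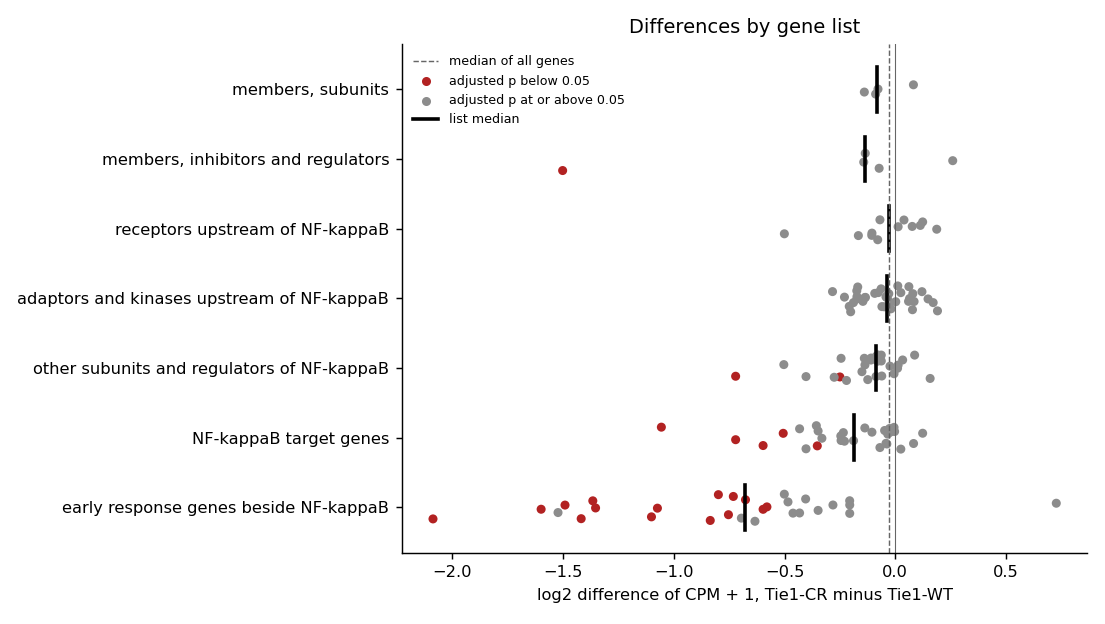
Difference of log2(CPM + 1), Tie1-CR minus Tie1-WT, of each measured gene in 7 lists (5 Tie1-CR and 4 Tie1-WT libraries). Red points passed an adjusted p of 0.05, black bars are list medians and the dashed line is the median of all genes, -0.03. Among the inhibitors and regulators Nfkbiz stands alone at -1.50, and 15 of 29 early response genes are red.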

How the data were processed

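Total RNA (50 to 100 ng) from a PicoPure kit was made into libraries with a SMARTer Ultra Low kit (amplified cDNA), per the labels' protocols. The submitters' processing notes name STAR 2.7, GRCm38.p6 and mm10. How reads were counted and genes filtered is not given in the sources used here. The authors deposited 1 table, called TPM in its name, that holds CPM: every value is a whole multiple of a step of its library, within 0.01 reads. The step gives depths of 38208696 to 54408116 counted reads. Each of the 9277 genes reaches 10.0 CPM in some library, so lower genes cannot be assessed.

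Values were used as log2(CPM + 1), which understates fold changes of low genes, with a filter of 1 CPM in 4 libraries that removed no gene. Genes were tested with limma 3.58.1 (R 4.3.3, trended empirical Bayes, two-sided), and p-values were adjusted by Benjamini-Hochberg over all 9277 genes, threshold 0.05. Differences are Tie1-CR minus Tie1-WT. Intervals cover 95%. The fit was tested on simulated data. The 9 members and all gene lists were chosen with earlier results of these data known, and no list was tested as a set. Named genes are the members, every list gene that passed or the 2 highest where none did, and the 5 genes nearest to each member that passed. Tie1 is given as the altered gene, Psd and AC114539.1 as genes that overlap a member, and markers that passed for their cell types. Any other gene whose own value is given is said to be named after its value was seen. Genotype follows the numbering of the libraries, so an effect of handling order cannot be told apart from it. Depth did not differ past the threshold (exact permutation p = 0.413), and no libraries repeated each other's reads (lowest chi-square per degree of freedom 21.4). Alternatives covered pseudocounts, filters, scaling, variance models, a replicate block and each library left out. Plots used matplotlib 3.10.9 (Python 3.11.15).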

Additional observations from a re-analysis of the deposited data

Results flagged for a closer look

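Nfkbid in Tie1-CR replicate 1 was at 8.31 CPM, the lowest of its genotype and far from the other 4 libraries. Nfkbid in Tie1-WT replicate 4 was at 14.2 CPM, the lowest of its genotype and far from the other 3. These were the samples far from their group among 58 groups of 29 genes examined, and chance alone sets apart about 1 group in 20.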

How the results depend on the processing

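Nfkbiz passed in all 18 alternatives, at -1.64 to -1.38 log2 without each library in turn (limma adjusted p from 0.000129 to 0.00509), and 161 of 162 values of the 9 genes kept their direction and side of the threshold. The exception was Relb, at -0.14 to 0.0095 log2 without each library, positive without Tie1-WT replicate 3. Genes passing numbered 376, against 661 with library quality weights, 183 with the replicate block and 60 to 355 without each library (leaving out Tie1-CR replicate 4 gave 183, Tie1-WT replicate 3 gave 154, replicate 2 gave 135 and replicate 1 gave 60). TMM scaling moved the split from 119 higher and 257 lower to 182 higher and 194 lower, and the replicate block gave 38 higher and 145 lower. Of the leave-outs, that of Tie1-WT replicate 1 gave 6 higher, replicate 2 gave 34, replicate 3 gave 40, and that of Tie1-CR replicate 4 gave 52. Receptors passing numbered 0, against 1 with TMM scaling or weights and 0 to 1 without each library. Adaptors and kinases numbered 0, against 1 with weights and 0 to 1 without each library. Other regulators numbered 2, against 1 with TMM scaling, quantile normalization or the replicate block and 1 to 3 without each library. Targets numbered 5, against 2 with TMM scaling, 8 with weights, 3 with the replicate block and 2 to 6 without each library. Map3k3 became positive with TMM scaling (0.0044 log2) and ran from -0.035 to 0.0033 log2 without each library, positive without Tie1-WT replicate 2. The cause was not tested. Replicate numbers did not pair the samples (correlations of deviations -0.14 to 0.19 over 4 pairs), and with the replicate block Nfkbiz was at -1.57 log2. A count model was not run, because the deposited unit is not counts. Genes below the table's minimum level cannot be assessed.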
